A study of Mus musculus with 8 samples.

Results

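The developmental pluripotency associated (Dppa) genes are a set of mouse genes grouped by their expression in pluripotent cells and early germ cells, not by common descent. Dppa2, Dppa3, Dppa4 and Dppa5a were taken by the gene symbol that the array platform gives their probes, where Dppa5a is listed under its older name Dppa5. Each had 1 probe, so that 4 probes of the 23473 gene probes, and 4 genes of the 16390 named on the array, are described here. All 4 probes lay above background on all 8 arrays, and background is defined here as the mean plus 2 SD of the blank spots of the array. Dppa1, a further gene of that name on chromosome 11, was not chosen. The pseudogenes Dppa5b and Dppa5c on chromosome 9 and Dppa3-ps on the X chromosome have no probe named for them, and since no source used here gives the probe sequences, RNA of such near-identical copies could add to the Dppa5a and Dppa3 signals.

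Dppa2 and Dppa4 are neighbouring paralogues that encode SAP-domain chromatin proteins, which bind each other and, in mouse embryonic stem cells, keep bivalent promoters of developmental genes poised and promote expression of Dux and of genes of the 2-cell embryo. Dppa3 (Stella, PGC7) encodes a maternal and primordial germ cell factor that protects the maternal genome from loss of DNA methylation in the zygote and that restrains the DNA methylation cofactor Uhrf1. Dppa5a (Esg1) encodes an RNA-binding protein with a KH domain that is abundant in mouse embryonic stem cells. All 4 genes are silenced as embryonic stem cells leave pluripotency, although Dppa3 is read in a heterogeneous fraction of such cells.

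The RNA came from embryoid bodies, aggregates of differentiating cells, of iTbx6 T-GFP mouse embryonic stem cells, a line in which doxycycline (Dox) induces Tbx6, which encodes a T-box protein that specifies paraxial mesoderm. There were 4 groups of 2 arrays each, without Dox at day 2, with Dox at day 2, without Dox at day 4 and with Dox at day 4, all of the same line and all in serum-free medium with no growth factor added. The cells were dissociated and reaggregated after the first 2 days, and when Dox was added is not stated. No cells lacking the transgene received Dox, so effects of Dox itself and of Tbx6 cannot be told apart, and no source used here says whether the line is a single clone. Nothing states that replicates are separate cultures, so the p-values reflect the spread of the arrays at hand, part or all of which may be technical.

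Between 86.0% and 89.2% of gene probes lay above background per array, replicate arrays correlated at 0.993 or more across probes, and arrays of different groups at 0.985 or less. The number of arrays limits the precision. The Tbx6 probe, for which it is not given whether it reads the transgene, differed with Dox by -0.20 ± 0.12 on the log2 scale at day 2 (SE over 2 arrays a group, adjusted p of the limma fit 0.395) and rose by 0.62 ± 0.12 at day 4 (limma adjusted p = 0.00915). Levels below are log2 normalized intensities of 1 probe each, which may be compared between arrays but not between genes. Changes are log2 differences of group means with the standard error of a limma fit over all 8 arrays, with p-values adjusted by Benjamini-Hochberg over 21661 probes and called at 0.05.

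At day 4, all 4 Dppa genes were higher with Dox than without it, from 4.78-fold for Dppa2 to 95.7-fold for Dppa5a. At day 2 the genes differed, since Dppa3 was 13.6-fold higher with Dox, Dppa4 and Dppa2 were less than 2-fold higher, and Dppa5a did not pass the test. From day 2 to day 4 all 4 fell in both states of Dox. In bulk RNA, fewer cells of a type and less RNA per cell cannot be told apart.

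**Figure D1:**
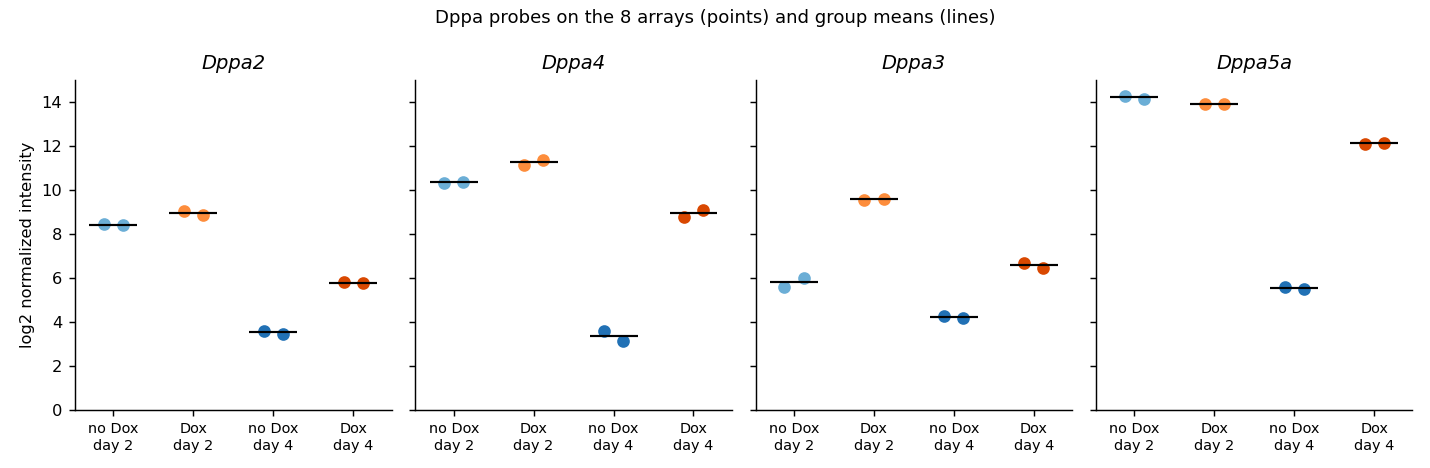
The log2 normalized intensity (vertical axis) of the Dppa2, Dppa4, Dppa3 and Dppa5a probes is plotted for each of the 8 arrays (points) in the 4 groups, with group means as lines. In every panel the arrays without Dox at day 4 are the lowest, between 3.14 and 5.59, and replicate points lie close together compared with the distance between most groups.

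Dppa2 is the partner of Dppa4 in the chromatin complex described above. Its probe read 8.43 and 8.40 without Dox at day 2 and 9.01 and 8.86 with it. At day 4 it read 3.58 and 3.45 without Dox and 5.79 and 5.76 with it. No groups overlapped, and both arrays with Dox lay above both without it on each day. With Dox the level was 0.53 ± 0.10 higher at day 2 (1.44-fold, n = 2 arrays per group, limma adjusted p = 0.0205) and 2.26 ± 0.10 higher at day 4 (4.78-fold, limma adjusted p = 1.18e-05).

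The day-2 call for Dppa2 was lost when any of the 4 day-2 arrays was left out (limma adjusted p from 0.0541 to 0.109) and when the arrays of day 2 were fitted alone (limma adjusted p = 0.0673). Without Dox, Dppa2 fell by 4.89 from day 2 to day 4, which left it 29.7-fold lower (SE 0.10, limma adjusted p = 5.51e-07). With Dox it fell by 3.16 (8.96-fold lower, limma adjusted p = 2.32e-05).

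Dppa4 had the same order of group levels as its paralogue, with wider distances at day 4. The probe read 10.30 and 10.37 without Dox at day 2 and 11.14 and 11.35 with it. At day 4 it read 3.59 and 3.14 without Dox and 8.76 and 9.08 with it. The 2 untreated arrays of day 4 stood far below the other 6. With Dox the level was 0.91 ± 0.18 higher at day 2 (1.88-fold, n = 2 arrays per group, limma adjusted p = 0.0235) and 5.56 ± 0.18 higher at day 4 (47.1-fold, limma adjusted p = 3.44e-06).

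As for Dppa2, the call at day 2 did not hold when any of the 4 day-2 arrays was left out (limma adjusted p from 0.0792 to 0.130). It also did not hold with the negative control spots subtracted in place of the blanks (limma adjusted p = 0.0585) or with no filter on dim probes (limma adjusted p = 0.0508). From day 2 to day 4, Dppa4 fell by 6.98 without Dox (126-fold lower, limma adjusted p = 1.01e-06) and by 2.33 with Dox (5.02-fold lower, limma adjusted p = 0.000316).

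Dppa3, the maternal and germ cell factor, had its highest level at day 2 with Dox. The probe read 5.58 and 6.0002 without Dox at day 2 and 9.52 and 9.59 with it. At day 4 it read 4.25 and 4.17 without Dox and 6.67 and 6.45 with it. Both arrays with Dox at day 2 stood above the other 6, and the arrays with Dox at day 4 stood above the untreated arrays of either day. With Dox the level was 3.77 ± 0.16 higher at day 2 (13.6-fold, n = 2 arrays per group, limma adjusted p = 9.69e-05), a rise that 16 of the 21661 probes matched or exceeded, Dppa3 included. At day 4 it was 2.35 ± 0.16 higher (5.09-fold, limma adjusted p = 6.99e-05).

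From day 2 to day 4, Dppa3 fell by 1.58 without Dox (2.99-fold lower, limma adjusted p = 0.000320), and with Dox the change was -3.0001 (8.0003-fold lower, limma adjusted p = 7.58e-05). It was the one member whose fall was larger with Dox than without it, as the test of the difference between the days gives below.

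Dppa5a, the KH-domain RNA-binding protein, read 14.28 and 14.13 without Dox and 13.91 on both arrays with Dox at day 2. At day 4 it read 5.59 and 5.48 without Dox and 12.09 and 12.14 with Dox. The day-4 groups stood far apart, while at day 2 both arrays with Dox lay slightly below both without it. The day-2 difference was -0.29 ± 0.10 (95% interval -0.53 to -0.050 before adjustment, n = 2 arrays per group, limma adjusted p = 0.128), which passed the threshold in a single alternative, with no background correction (-0.29, limma adjusted p = 0.0142).

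At day 4, Dppa5a was 6.58 ± 0.10 higher with Dox (95.7-fold, limma adjusted p = 4.03e-07), a rise matched or exceeded by 10 of the 21661 probes, itself included. Without Dox it fell by 8.67 from day 2 to day 4 (406-fold lower, limma adjusted p = 1.43e-07), and with Dox by 1.79 (3.47-fold lower, limma adjusted p = 9.56e-05). Only 2 probes, counting Dppa5a, fell as far without Dox in this fit.

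**Figure D2:**
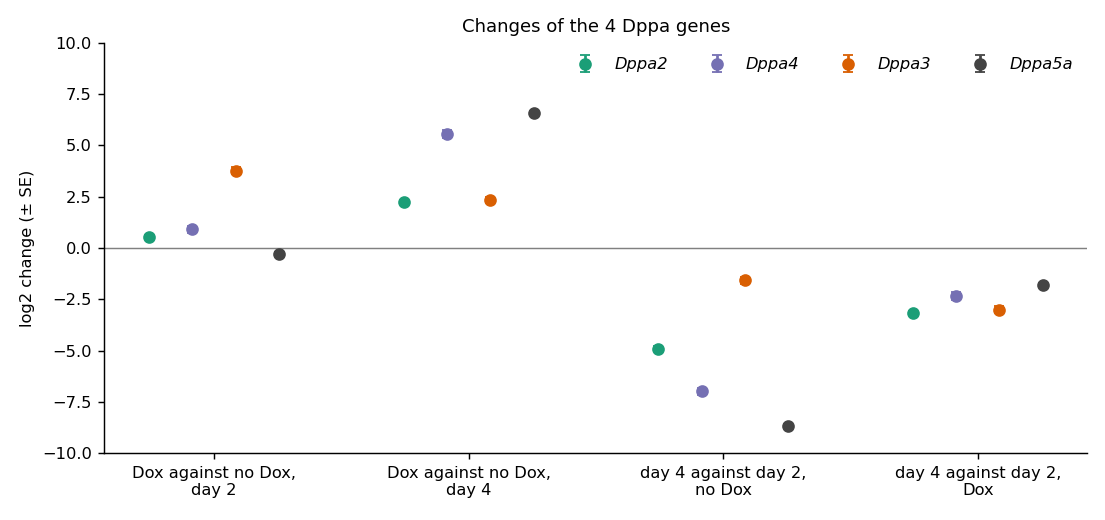
The log2 change of each Dppa gene (vertical axis, ± SE of the limma fit, often smaller than the point) is plotted for Dox against no Dox at day 2 and day 4 and for day 4 against day 2 without and with Dox. The day-4 Dox changes run from 2.26 to 6.58, and all 8 changes over time are below 0.

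Counted over the 4 genes, 3 were called higher with Dox at day 2 and 1 was not called, where 5.55% of all probes tested were called higher. All 4 were called higher with Dox at day 4, where 14.4% of all probes were. Without Dox all 4 were called lower at day 4 than at day 2, against 17.9% of all probes, and with Dox likewise all 4, against 9.33%. The median Dppa change with Dox was 0.72 at day 2 and 3.95 at day 4, and the medians of all probes were -0.0061 and -0.036.

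The size of the changes depends on how the background is removed, because the untreated levels at day 4 were dim. Before normalization the Dppa4 probe there read 12.6 and 7.08 intensity units over the blanks, and the Dppa2 probe 12.6 and 8.83, where the SD of the blank spots was between 0.871 and 1.37. With no background correction the day-4 Dox changes were 0.72 for Dppa2, 3.03 for Dppa4, 1.01 for Dppa3 and 5.46 for Dppa5a, all still called. At day 2 the Dox change of Dppa3 was then 2.86 in place of 3.77 (limma adjusted p = 1.40e-05). The changes from day 2 to day 4 without Dox were -2.56, -4.35, -0.58 and -7.53 for Dppa2, Dppa4, Dppa3 and Dppa5a, and that of Dppa2 with Dox was -2.31, all still called.

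The Dox change itself differed between the days for each gene, as tested by the interaction term of the same fit, which called 11.1% of all probes higher and 11% lower. The day-4 change exceeded the day-2 change by 1.73 ± 0.14 for Dppa2 (limma adjusted p = 0.000334), by 4.65 ± 0.26 for Dppa4 (limma adjusted p = 6.29e-05) and by 6.87 ± 0.14 for Dppa5a (limma adjusted p = 3.69e-06). For Dppa3 the sign was the opposite, with a day-4 change that was smaller by 1.42 on the log2 scale (SE 0.22, limma adjusted p = 0.00506). With no background correction the difference was 0.25 for Dppa2 (limma adjusted p = 0.0321), 2.15 for Dppa4 (limma adjusted p = 0.000195) and 5.75 for Dppa5a (limma adjusted p = 7.10e-07).

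The order of the 4 groups fell into 3 patterns. Dppa2 and Dppa4 rose from no Dox at day 4 to Dox at day 4, then no Dox at day 2 and then Dox at day 2, and each step was called. For these genes the level with Dox at day 4 stayed below the untreated level of day 2, with a difference of -2.64 for Dppa2 (6.22-fold lower, limma adjusted p = 2.71e-05) and of -1.42 for Dppa4 (2.67-fold lower, limma adjusted p = 0.00275). With no background correction these were -1.84 and -1.32, both called. That contrast called 9.27% of all probes lower and 8.72% higher.

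Dppa3 rose from no Dox at day 4 to no Dox at day 2, then Dox at day 4 and then Dox at day 2. Its level with Dox at day 4 was 0.77 ± 0.16 above the untreated level of day 2 (1.70-fold, limma adjusted p = 0.0177). This step was lost without the first untreated array of day 2 (limma adjusted p = 0.0680), without the first array with Dox at day 4 (limma adjusted p = 0.102) and with those groups fitted alone (limma adjusted p = 0.0974). Dppa5a rose from no Dox at day 4 to Dox at day 4 and then to the day-2 groups, whose arrays did not overlap but whose difference missed the threshold after adjustment (limma adjusted p = 0.128). With Dox at day 4 it was 4.24-fold below the untreated day-2 level (limma adjusted p = 5.12e-05).

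The untreated day-4 group was the lowest in all 4 genes. Its distance below the highest group, as a log2 difference of means, was 5.42 for Dppa2, 7.88 for Dppa4, 5.35 for Dppa3 and 8.67 for Dppa5a. A distance between highest and lowest group as large as that of Dppa5a was reached by 0.0185% of the probes tested, as large as that of Dppa4 by 0.0554%, as large as that of Dppa2 by 0.448% and as large as that of Dppa3 by 0.485%.

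Among themselves, Dppa4 and Dppa5a had the most alike pattern, with a root mean square difference of 0.64 between their centred log2 levels over the 8 arrays (r = 0.990). The adjacent paralogues Dppa2 and Dppa4 differed by 1.22 on that measure (r = 0.947), so Dppa5a was nearer to Dppa4 than Dppa2 was. Of 15406 named genes, Dppa5a was at rank 5 among those most like Dppa4. Dppa4 was at rank 231 among those most like Dppa2. Dppa3 and Dppa5a were the least alike pair, at 2.55 (r = 0.702). These values are descriptions, since the 8 arrays form 4 groups of replicates. They also depend on the background step, and the ranking was made only with the blanks subtracted. With no background correction the falls without Dox were -2.56 for Dppa2, -4.35 for Dppa4 and -7.53 for Dppa5a. In that change Dppa4 lay nearer to Dppa2 than to Dppa5a, so the order of these pairs is not settled.

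By the same measure the 5 named genes most like Dppa2 were Mfap5, which encodes a microfibril protein, Pecam1, a cell adhesion protein also made by embryonic stem cells, Pdcl2, Igsf23 and Triml1. Their root mean square differences ran from 0.12 (r = 0.999 for Mfap5) to 0.34. Mfap5, Pecam1, Pdcl2 and Triml1 were not above background on either untreated array of day 4, so their likeness there depends on the floor. For Dppa4 they were Nr0b1 (Dax1, an orphan nuclear receptor of the pluripotency network) at 0.35, Gdf3 (a TGF-beta family ligand), Zfp42 (Rex1, a zinc finger marker of naive pluripotency), 4930447C04Rik and Dppa5a.

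For Dppa5a the most alike were Utf1, a chromatin protein of pluripotent cells, at 0.42 (r = 0.999), Pla2g10, a secreted phospholipase, then Dppa4, Nr0b1 and Gdf3. The genes most like Dppa3 were others, with H19, an imprinted noncoding RNA, first at 0.29 (r = 0.991), then Mylpf, a myosin light chain, Nmi, Cd2 and Cd55, a complement regulator. H19 had group means of 5.61 without and 8.75 with Dox at day 2 and of 3.70 without and 5.81 with Dox at day 4. Nr0b1, Pla2g10 and Cd55 were not above background on either untreated array of day 4.

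**Figure D3:**
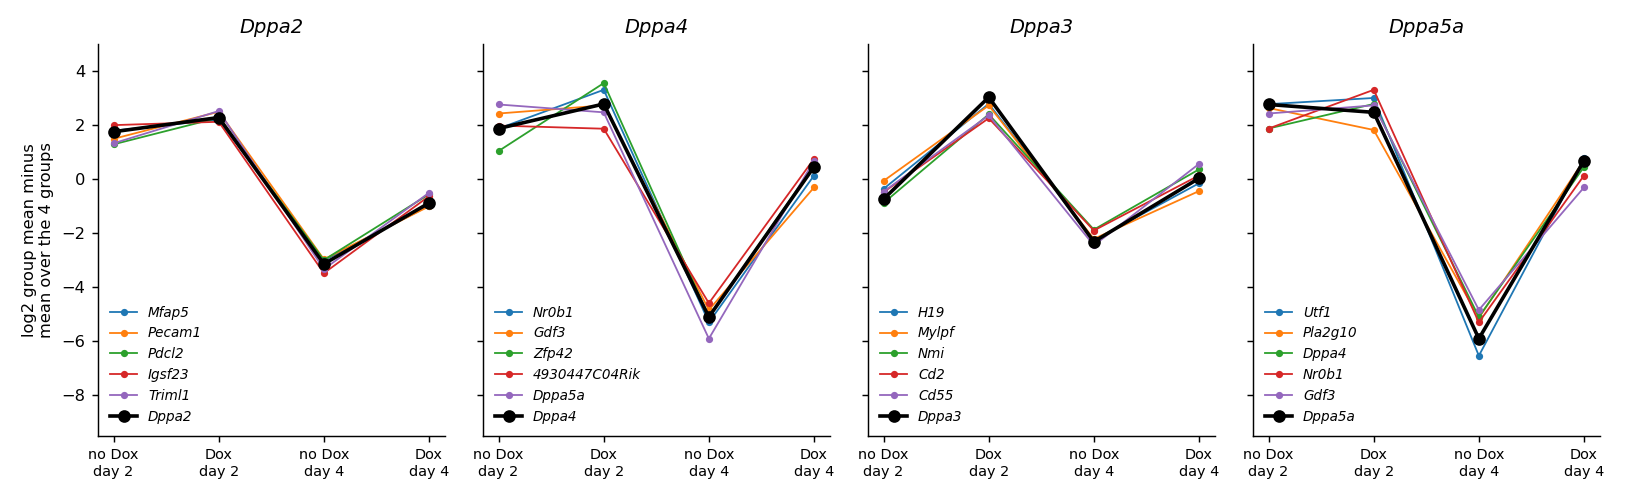
Each panel shows a Dppa gene (black) and the 5 named genes most like it, as log2 group means minus the gene's mean over the 4 groups (vertical axis) for the groups without and with Dox at day 2 and day 4. The sets of Dppa2, Dppa4 and Dppa5a are lowest without Dox at day 4, and the set of Dppa3 peaks with Dox at day 2.

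The genes next to the Dppa genes on their chromosomes were looked up by gene order, as the nearest 3 protein-coding genes with a tested probe on each side, which gave 18 neighbours in all. With Dox 2 of the 18 were called higher and 3 lower at day 2, and 5 higher and 3 lower at day 4, with medians of -0.012 and 0.062. Of all probes tested, 5.55% were higher and 6.25% lower at day 2, and 14.4% higher and 15.5% lower at day 4, so the 3 lower neighbours at day 4 are a share near that of all probes. Next to Dppa2 and Dppa4 on chromosome 16 lies Morc1, which encodes an ATPase that silences transposons in the mouse male germ line. Morc1 rose with Dox by 1.08 at day 2 (limma adjusted p = 0.00274) and by 1.88 at day 4 (limma adjusted p = 6.19e-05). The other neighbours there, Nectin3, Cd96, Phldb2, Trat1 and Retnla, were not called on either day.

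Dppa3 lies on chromosome 6 between Gdf3 and Nanog, the homeobox factor of pluripotency. With Dox, Nanog rose by 1.32 ± 0.18 at day 2 and by 6.56 ± 0.18 at day 4 (limma adjusted p = 0.00520 and 1.61e-06), so that at day 4 its change was larger than that of Dppa3, and at day 2 smaller. Gdf3 differed by 0.30 at day 2 (limma adjusted p = 0.251) and rose by 4.53 at day 4 (limma adjusted p = 2.68e-06), with 1 of the 2 untreated day-4 arrays above background. On the far sides, Mfap5 was at least 3.49-fold higher at day 4 with the blanks subtracted. With no background correction Mfap5 rose by 0.16 on the log2 scale. Slc2a3, a glucose transporter, fell by 0.89 at day 2 and by 1.09 at day 4. Apobec1, a cytidine deaminase, fell by 0.78 at day 2, while Foxj2 was called on neither day. The day-2 calls of Slc2a3 and Apobec1 were lost in several alternatives, among them the fit of the day-2 arrays alone (limma adjusted p = 0.0986 and 0.0551).

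Dppa5a lies on chromosome 9 beside Ooep, which encodes another protein with a KH-like domain, of the maternal complex under the oocyte membrane. Ooep fell with Dox by 0.99 at day 2 (limma adjusted p = 0.00244) and rose by 2.84 at day 4 (limma adjusted p = 6.45e-06). Dppa5a had the same sign on each day, without passing the test at day 2. Of the other neighbours, Cilk1 fell by 0.88 and Gsta4 by 0.50 at day 4, the latter not holding in the fit of day-4 arrays alone (limma adjusted p = 0.0669), and Gsta2, Cgas and Mto1 were not called.

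**Figure D4:**
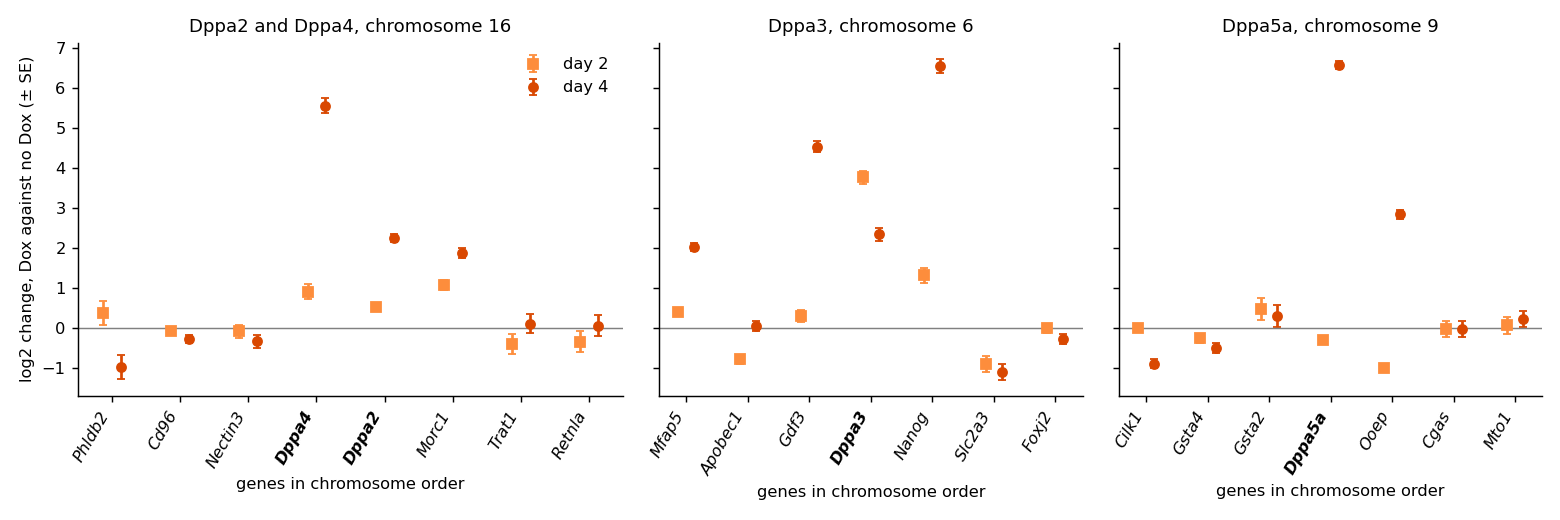
The log2 change with Dox (vertical axis, ± SE) at day 2 (squares) and day 4 (circles) is plotted for the Dppa genes (bold) and their neighbours in gene order on chromosomes 16, 6 and 9. At day 4 the raised genes lie side by side in each panel, Dppa4, Dppa2 and Morc1, then Gdf3, Dppa3 and Nanog, then Dppa5a and Ooep, and Mfap5 further away.

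The Dppa genes were then set beside 7 lists of genes of the pathways they are known for, described by counts and medians. The shares of all probes called higher and lower are those given beside the neighbours. Of 15 naive pluripotency genes tested, 8 rose and 1 fell with Dox at day 2 (median 0.56) and 10 rose and 1 fell at day 4 (median 0.61). Zfp42 rose by 2.51 and 5.61, and Nr5a2, a nuclear receptor of the naive state, by 2.42 on each day. Nr0b1 rose by 1.43 at day 2 and, with the blanks subtracted, was at least 37.4-fold higher at day 4. With no background correction its day-4 rise was 1.35 on the log2 scale.

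Of 7 general pluripotency genes tested, 0 were called by limma at day 2 (4 at an unadjusted p under 0.05, median 0.23) and 5 rose at day 4 (median 2.43). At day 4 Utf1 rose by 7.30, Tdgf1, the Nodal co-receptor Cripto, by 7.14, and Fgf4, a growth factor of the early epiblast, by 2.43, with 1 of the 2 untreated arrays of Fgf4 above background. Pou5f1 and Sox2, the central factors of this class, have no probe named for them here. Of 6 primed epiblast genes, 3 fell with Dox at day 2, among them Zic2 by 1.06 and Zic5 by 0.996. At day 4 in this list Fgf5, a growth factor of the primed epiblast, rose by 4.65, Zic5 by 1.60 and Zic2 by 0.70, while Sox3 fell by 1.32 and Otx2 by 0.93.

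Dux and 2-cell genes, the set that Dppa2 and Dppa4 promote in mouse embryonic stem cells, had 8 named probes for the 23 genes listed, of which 7 were tested. With Dox 0 of the 7 were called by limma at day 2 (0 at an unadjusted p under 0.05, median 0.019), and 1 was called higher and 1 lower at day 4 (median 0.48). Zscan4c had group means of 6.55 without and 6.35 with Dox at day 2, and was not above background on either untreated array of day 4. It was at least 1.65-fold higher with Dox at day 4 (group means 1.99 and 1.04), a call that was lost with the negative controls subtracted (limma adjusted p = 0.337), with no background correction (limma adjusted p = 0.136) and with the floor at 4 blank SDs (limma adjusted p = 0.490). Tdpoz4 fell by 0.75 at day 4. Dux itself has no probe named for it.

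Germ cell and meiosis genes, the setting in which Dppa3 is best known, had 19 tested members, of which 7 rose and 4 fell with Dox at day 2 (median -0.080) and 12 rose at day 4 (median 1.02, or 0.97 with the 3 genes below background in 1 group set to their bound). The day-2 falls in this list numbered 2 in the authors' processed table and with no filter on dim probes. Across the alternatives that left out no single array, normexp apart, the day-2 falls numbered 1 to 5 and the rises 5 to 7. Rhox6, an X-linked homeobox gene of the placenta and germ line, rose by 6.69 at day 2 and by 5.53 at day 4. Tfap2c, a transcription factor of primordial germ cells and trophoblast, rose by 4.99 and 3.39. At day 2 Nanos3, which primordial germ cells need to survive, rose by 2.88, while Stra8, a gene of meiotic entry, fell by 3.05. Sycp3, of the synaptonemal complex, rose by 6.74 at day 4, with 1 of the 2 untreated arrays above background.

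Genes of DNA methylation and demethylation, the process that Dppa3 acts on, had 11 tested members, of which 4 rose and 2 fell at day 2 (median 0.32) and 5 rose and 1 fell at day 4 (median 0.50). Dnmt3l, the cofactor of the de novo methyltransferases, rose by 1.81 at day 2 and by 4.002 at day 4. Dnmt3b fell by 0.46 at day 2 and rose by 2.92 at day 4, and Dnmt3a fell by 0.64 and rose by 1.24. Without any 1 of the day-2 arrays, the 2 day-2 falls in this list dropped to 0, and the rises to between 1 and 2.

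The maternal complex and KH family, the relatives of Dppa5a, had 6 tested members, of which 2 rose and 1 fell at day 2 (median -0.41) and 2 rose at day 4 (median 0.55). Khdc3 (Filia), which lies in the same KH family, rose by 2.73 at day 2 and by 1.85 at day 4. Tle6, of the same complex, rose by 1.83 at day 2, a call lost in the fit of day-2 arrays alone (limma adjusted p = 0.0856). The sizes of these changes depend on the background, as those of the Dppa genes do. With no background correction, none of the listed and neighbouring genes named by their size of change turned sign, but the fold was over 1.5 times smaller for 8 of 22 at day 2 and for 20 of 29 at day 4, and 1 was no longer called on each day, Zfp57 at day 2 and Zscan4c at day 4. Khdc3 then rose by 0.80 at day 2 and by 0.24 at day 4, Stra8 fell by 0.76 at day 2, and at day 4 Gdf3 rose by 0.93 and Fgf4 by 0.24. The medians of all probes for these comparisons are those given beside the Dppa counts.

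**Figure D5:**
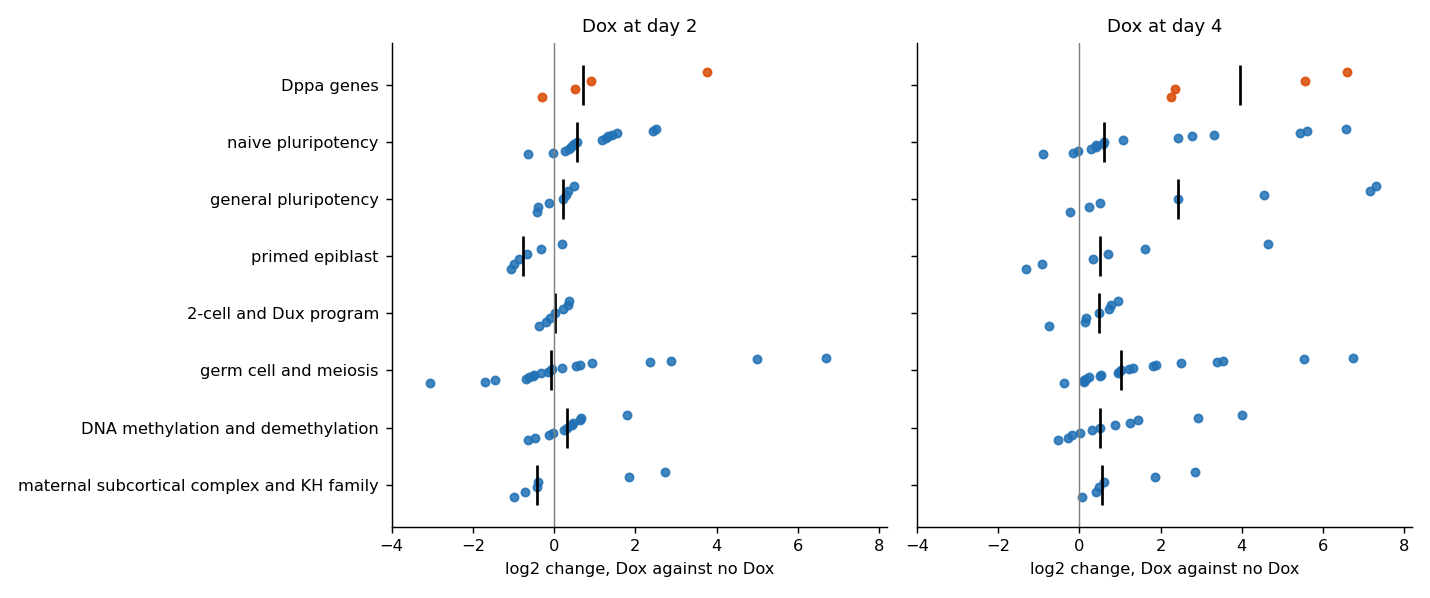
The log2 change with Dox (horizontal axis) at day 2 (left) and day 4 (right) is plotted for the 4 Dppa genes and for the tested members of 7 gene lists (points), with list medians as vertical bars. Changes of genes below background in 1 group depend on the floor. The Dppa median is 0.72 at day 2 and 3.95 at day 4.

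The levels of cell type markers were taken over the same 4 groups. Over the 6 of 8 embryonic stem cell markers with a probe, the summed normalized intensity lay between 7960 and 8001 without Dox and between 13280 and 13720 with Dox at day 2, and between 79.1 and 96.9 without Dox and between 3821 and 4281 with Dox at day 4. The order of these sums is that of Dppa2 and Dppa4, but Utf1 alone made up 79.4% of the sum without Dox at day 2 and 55.1% with Dox. Nanog did not follow this order, with group means of 9.54 without and 10.86 with Dox at day 2 and of 10.89 with Dox at day 4, and Fgf4 had means of 7.01 without and 6.61 with Dox at day 2. Of these 6, 2 rose with Dox at day 2 and 5 at day 4, where 5.55% and 14.4% of all probes were called higher. Each of the 6 was above background on at least 1 array of every group.

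Over 6 neural markers the sum was highest without Dox at day 4, at 4134 to 4523, and lay between 449 and 495 with Dox on that day. Fabp7, a fatty acid binding protein of radial glia, made up 92.0% of the untreated sum. Pax6 and Tubb3 also fell with Dox at day 4, by 3.10 and 1.56, while Stmn2 rose by 1.51 and Nes and Dcx were not called. Over 8 nascent mesoderm markers the sum was highest with Dox at day 4, at 2595 to 2641, against 149 to 183 in the other groups, and Mesp1 was not above background on either untreated day-4 array. T (Brachyury), which marks primitive streak cells, was at 10.17 and 10.15 with Dox at day 4, and between 3.27 and 3.68 on the other 6 arrays.

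The germ cell marker sum over 6 genes was highest with Dox at day 2, at 1406 to 1409, the group in which Dppa3 was highest. Tfap2c and Nanos3 made up 42.9% and 28.3% of it there, and Prdm1 rose by 0.63, while Ddx4, Dazl and Dnd1 were not called with Dox at day 2 (log2 differences of -0.041, -0.52 and -0.16). The sum was 505 to 520 without Dox at day 2, 276 to 280 without Dox at day 4 and 494 to 528 with Dox at day 4. Ddx4 and the other markers of this list were above background on at least 1 array of each group, except Prdm1 without Dox at day 4. The trophoblast sum over 5 genes lay between 109 and 153 outside the group with Dox at day 4, which had 327 to 340. Eomes, which also stands in the nascent mesoderm list, made up 69.5% of it in that group, and Cdx2, Gata3 and Hand1 were not called with Dox at day 4. Elf5 was highest with Dox at day 2, with a group mean of 4.55, against 2.60 with Dox at day 4. The visceral endoderm sum over 8 genes was between 140 and 161 without Dox and between 48.5 and 48.6 with Dox at day 2. At day 4 it was between 43.3 and 54.6 without Dox and between 119 and 131 with Dox. Afp was above background in none of the groups, and the feeder fibroblast sum over 7 genes was between 90.3 and 206. The part of these cell types in the Dppa values was not tested.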

How the data were processed

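Total RNA of embryoid bodies was amplified to amino allyl aRNA, coupled to Cy5 and hybridized to 8 single-colour Toray 3D-Gene arrays, per the labels' protocols. Samples were grouped by title, with 2 arrays per group, and the titles number the replicates. The deposited scanner output gives each spot's median intensity and flag, and a further intensity column named as background. Both intensities were scaled over 3 scanner gains, per the file headers. A processed intensity table on a linear scale was deposited too. No label states how the authors made it, and it has a median of 25 on each array and follows the scanner values as a straight line. It was used, after log2, as an alternative. No source used here names a genome build or scanner software.

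The mean of the blank spots was subtracted, spots of a probe were averaged, and the 23473 gene probes were quantile normalized, set to a floor of 2.06 (2 blank SDs, median over arrays) and log2 transformed. The column named as background tracked the signal of its own spot (log correlation 0.984 to 0.998), so normexp on it was only an alternative. Poor spots were left out. The 21661 probes above background on at least 2 arrays were tested with limma 3.58.1 (R 4.3.3), with 1 mean per group over all 8 arrays and eBayes (residual df 4, prior df 2.70), 2-sided, Benjamini-Hochberg threshold 0.05. The functions were tested on simulated data. An exact permutation test of 2 arrays against 2 cannot go below p = 0.333 and was not used.

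Symbols came from the platform annotation, updated through the RefSeq gene table (GRCm38.p6), from which chromosomes and gene order were taken. Of the gene probes 16631 have 1 symbol, 0 several and 6842 none. A gene with several probes is represented by the brightest. Where both arrays of a group were below background, a fold with the blanks subtracted is given as at least N-fold. That bound need not hold with no background correction. It sets the brighter mean against the lowest level above background on each dim array, or the gene's own level where that was higher. Named genes are the 4 Dppa genes, the 5 genes most alike each of them by root mean square difference, the nearest 3 tested neighbours on each side, and at most 4 members per list and comparison with the largest change, kept in the text for the other day too. Genes of the marker lists are named where they carry or depart from a list's sum, after their values were seen. Members and lists were chosen with earlier results of these data known. No sequence is shown. Alternatives were other backgrounds, scaling, floors, filters, sample sets, a replicate block and leaving out each array. Figures were drawn with matplotlib 3.10.9.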

Additional observations from a re-analysis of the deposited data

Results flagged for a closer look

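The change with Dox differed between day 2 and day 4 for each of the 4 Dppa genes, by the interaction term of the limma fit over 8 arrays with 2 arrays per group. That term called 22.1% of all probes tested, in either direction. With no background correction the differences were 0.25 for Dppa2, 2.15 for Dppa4, -1.85 for Dppa3 and 5.75 for Dppa5a. The values that follow are those of the main fit. The day-4 change minus the day-2 change was 1.73 for Dppa2 (adjusted p = 0.000334), 4.65 for Dppa4 (adjusted p = 6.29e-05), -1.42 for Dppa3 (adjusted p = 0.00506) and 6.87 for Dppa5a (adjusted p = 3.69e-06), all on the log2 scale.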

How the results depend on the processing

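Normexp on the local background column, which tracked the signal of its own spot, was set beside the main fit. Of the 24 Dppa values, 20 then kept their sign but were no longer called, and 3 changed sign. Dppa5a with Dox at day 2 was called in neither fit. For Dppa2, Dppa4, Dppa3 and Dppa5a in that order the log2 values were then 0.27, -0.80, 1.33 and -0.74 for Dox at day 2, 0.050, 0.054, 0.066 and 1.76 for Dox at day 4, and -0.22, 0.85, -1.26 and 2.50 for the difference between days. They were -0.000684, -2.36, -0.061 and -4.05 for time without Dox, -0.22, -1.51, -1.32 and -1.55 for time with Dox, and 0.049, -2.31, 0.0050 and -2.29 for Dox at day 4 against untreated day 2. In the same 6 comparisons limma then called 2, 0, 0, 0, 3 and 0 probes, with 477, 855, 522, 605, 783 and 823 at an unadjusted p under 0.05. Other genes that changed sign there were Rhox6 (-0.26) and Zfp57 (-0.018) at day 2, and at day 4 Fbxo15 (-0.010), Fgf4 (-0.029), Khdc3 (-0.0028), Morc1 (-0.030), Nanog (-0.64), Ooep (-0.084), Otx2 (0.064), Rhox6 (-0.062), Zfp42 (-0.23) and Zic5 (-0.0053).

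In the other settings without a left-out array no Dppa value changed sign. The log2 value of Dppa4 at day 2 was 0.91 both with the negative controls subtracted and with no filter on dim probes, no longer called, and that of Dppa5a at day 2 was -0.29 and called with no background correction. With only the groups compared in the fit, which has fewer samples, Dppa2 at day 2 (0.53) and Dppa3 for Dox at day 4 against untreated day 2 (0.77) were not called. The same setting gave 1345 probes called for Dox at day 2 and 2467 for Dox at day 4 against untreated day 2, where the fit over all arrays gave 2557 and 3896. With all arrays, Dox at day 4 called 6483 probes, the difference between days 4794, time without Dox 8263 and time with Dox 4108.

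Leaving out each array in turn, which assumes that a lone array varies like the other groups, gave log2 values of 0.45 to 0.60 for Dppa2 and 0.81 to 1.01 for Dppa4 with Dox at day 2, and of 0.56 to 0.98 for Dppa3 with Dox at day 4 against untreated day 2. The calls ranged from 1163 to 2266 probes for Dox at day 2, from 2421 to 3840 for time with Dox and from 2347 to 3570 for Dox at day 4 against untreated day 2. They fell by over 1.5 times without any 1 array of the groups compared.

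Deviations of same-numbered arrays from their group means correlated between -0.27 and 0.23. With 2 arrays per group this cannot settle whether equal numbers pair the samples, which no label states. With the replicate number as a block, 2009 probes were called for Dox at day 2 and 5915 at day 4, and no call of a Dppa gene changed. The files name no slide or scan batch, so that block was not run. Dim levels limit the fold changes against the untreated day-4 group, since the negative control spots lay above the blanks.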
